A study of Mus musculus with 30 samples.

Results

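The IFIT family of the mouse, the interferon-induced proteins with tetratricopeptide repeats, was followed in 2 tumor cell lines treated with interferons or a STING agonist. Its members were taken by name, as the 6 genes Ifit1, Ifit2, Ifit3, Ifit3b, Ifit1bl1 and Ifit1bl2, of 49315 genes counted. All 6 passed the filter of 10 reads summed over the libraries, which 21138 genes passed.

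IFIT genes are among the classical interferon-stimulated genes. Their proteins bind foreign RNA and components of the translation machinery. IFIT1 recognises capped RNA that lacks the ribose methylation of host messages. The human proteins IFIT2 and IFIT3 form complexes with IFIT1 or with each other. Type I interferons such as IFNβ act through IFNAR, JAK1 and TYK2 on a complex that includes STAT2 and IRF9 and binds interferon-stimulated response elements, whereas IFNγ acts through its own receptor, JAK1 and JAK2. STING senses the cyclic dinucleotide made by cGAS and acts through TBK1 and IRF3, which leads to type I interferon production in many cells.

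B16F10, a melanoma line, and 6694c2, a pancreatic ductal adenocarcinoma (PDAC) line, both of C57BL/6 origin per the labels, were cultured for 24 h with vehicle, IFNγ (100 ng/mL), IFNβ (1000 U/mL) or STING agonist (225 μg/mL). Each of these 8 groups had 3 bulk RNA-seq libraries. The labels give the vehicle groups no agent and do not say whether the 3 libraries came from separate cultures, so p-values measure the spread between libraries, which may be technical. Libraries held between 15543131 and 32266795 reads on genes (median 22643586). Each condition was tested in these lines alone, and the doses of the agents cannot be set against each other.

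The labels of the lines were checked against marker genes. Summed melanocyte markers (9 genes) ranged from 15347 to 19468 CPM, a gene's reads scaled to library size, in the B16F10 libraries and from 19.8 to 137 in the 6694c2 libraries. Summed epithelial markers (10 genes) ranged from 13760 to 16192 CPM in 6694c2 and from 15.6 to 147 in B16F10. Each group thus held a low level of the other line's markers. Melanocyte markers in 6694c2 were at 0.470% of the B16F10 vehicle level with vehicle, 0.457% with IFNγ, 0.192% with IFNβ and 0.115% with the STING agonist. Epithelial markers in B16F10, in the same order, were at 0.133%, 0.227%, 0.269% and 0.835% of the 6694c2 vehicle level. Among 8 immune markers, summed levels ranged from 6.74 to 12 CPM over all libraries. Cd3e (T cells) and Itgam (myeloid cells) both had no read in 5 of the 8 groups. Trac, a T cell receptor gene, had 203 to 381 reads in each 6694c2 group, with a mean of 5.26 CPM with vehicle. Lyz2, a myeloid gene, had 281 to 396 reads in each B16F10 group, with a mean of 5.48 CPM with vehicle. The part of other cell types in the results was not tested.

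The 6 genes lie next to each other at chr19:34550694-34650009 (GRCm38), a stretch of 99.3 kb. In chromosomal order they are Ifit2, Ifit3, Ifit1bl1, Ifit3b, Ifit1bl2 and Ifit1, with Ifit1bl1 and Ifit1bl2 on the reverse strand and the other 4 on the forward strand. Ifit1bl2 and Ifit1 start head to head, 127 bases apart. No exon of a member overlaps an exon of another counted gene. Ifit3 and Ifit3b, which both code for 403 residues, share 99.1% of their coding bases. Ifit1bl1 and Ifit1bl2 share 88.3%, and Ifit1 shares 77.9% with Ifit1bl1 and 60.1% with Ifit2. Of all 50-base stretches of the Ifit3 transcript, 51.2% also occur in Ifit3b, and of 100-base stretches 31.7% do, so the counting could split reads between this pair and their separate values are uncertain. The same share of 50-base stretches was 7.1% for Ifit1, 6.5% for Ifit1bl1, 9.3% for Ifit1bl2 and 0.0% for Ifit2.

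Because interferon-stimulated response elements are built on repeats of GAAA, the promoters were searched on both strands for GAAANNGAAA, in windows of 250 bases before to 50 bases after each start from RefSeq (GRCm38.p6). A match was found in 3.44% of the 32851 mouse windows, and in a window of 5 of the 6 members. The pieces that hold the matches are printed below to let their spacing be compared, 5′ to 3′ on each gene's own strand, with the matched letters (TTTCNNTTTC, the same motif read on the other strand) in capitals. They lie upstream of Ifit1 (chr19:34640770-34640828, forward strand), Ifit3 (chr19:34583358-34583431, forward), Ifit3b (chr19:34607754-34607827, forward) and Ifit1bl1 (chr19:34602048-34602087, reverse).
Ifit1: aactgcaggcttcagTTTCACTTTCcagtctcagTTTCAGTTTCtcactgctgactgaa
Ifit3: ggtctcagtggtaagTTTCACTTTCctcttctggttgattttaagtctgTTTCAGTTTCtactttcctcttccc
Ifit3b: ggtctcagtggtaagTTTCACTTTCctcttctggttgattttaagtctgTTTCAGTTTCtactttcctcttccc
Ifit1bl1: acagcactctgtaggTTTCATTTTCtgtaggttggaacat

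The printed pieces of Ifit3 and Ifit3b were identical, and their whole windows matched in 258 of 260 aligned bases. The first letters of the matches lay 104 and 85 bases before the start of Ifit1, 156 and 122 bases before that of Ifit3, and 188 and 154 bases before that of Ifit3b. The Ifit1 piece lies within the gap between the head-to-head genes, so the same 2 matches also stand 70 and 51 bases before the start of Ifit1bl2. Ifit1bl1 had a match 104 bases before its annotated start and another, 23 bases upstream, in the window of a second RefSeq start. Neither window of Ifit2 held these letters. TTCNNNGAA, the core of the gamma-activated sites, occurred in 8.30% of windows and, among the members, in 1 window of Ifit2 alone, 241 bases before the start. A match describes letters in these windows and was not a measurement of binding.

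Vehicle levels of 5 of the 6 genes were higher in every B16F10 library than in every 6694c2 library. The share of all genes whose libraries did not overlap was not counted. Ifit1 was at 48.6, 55.9 and 54.5 CPM in the B16F10 vehicle libraries and at 2.51, 2.06 and 2.19 CPM in 6694c2. Ifit2 was at 62.1, 69.1 and 72.5 CPM in B16F10 and at 4.79, 5.58 and 4.33 CPM in 6694c2. Ifit3 was at 27.6, 38.7 and 46.8 CPM in B16F10 and at 4.14, 1.90 and 5.12 CPM in 6694c2. For all 3 genes every B16F10 library was above every 6694c2 library. Ifit3b ranged from 9.76 to 14.0 CPM in B16F10 and from 0.446 to 1.46 CPM in 6694c2, again without overlap. Ifit1bl2 had 7, 12 and 2 reads in B16F10 and no read in the 3 libraries of 6694c2. Ifit1bl1 was at 0.191, 0.281 and 0.391 CPM in B16F10 and at 0.409, 0.279 and 0.122 CPM in 6694c2, and these ranges overlapped.

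Genes were called at an adjusted p under 0.05 in the quasi-likelihood test of edgeR, adjusted over all genes tested by the Benjamini-Hochberg method. Of the 6 genes, 5 were called lower in 6694c2, where 29.3% of all genes were called lower. In either direction, 12264 of the 21138 genes tested were called. The log2 difference (6694c2 minus B16F10) was -4.55 ± 0.101 (SE, n = 3 against 3; adjusted p = 3.08e-33 in the quasi-likelihood test) for Ifit1, -3.79 for Ifit2, -3.36 for Ifit3 and -3.57 for Ifit3b. For Ifit1bl2, 3 reads over the group, the limit that a count of 0 allows, are 0.0583 CPM, so its B16F10 mean of 0.298 CPM was at least 5.11-fold higher. The median of the 6 differences was -3.68 as fitted and -3.46 with Ifit1bl2 at that bound, against -0.01 over all genes. Counting reads against library totals without TMM moved the median of all genes in this comparison by -0.181. At the melanocyte marker share of the 6694c2 vehicle libraries, 0.470% of the B16F10 IFNβ level of Ifit1 is 4.35 CPM and of Ifit3 8.23 CPM, above the 2.26 and 3.72 CPM measured. The part of such reads in the 6694c2 vehicle levels was not tested.

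**Figure D1:**
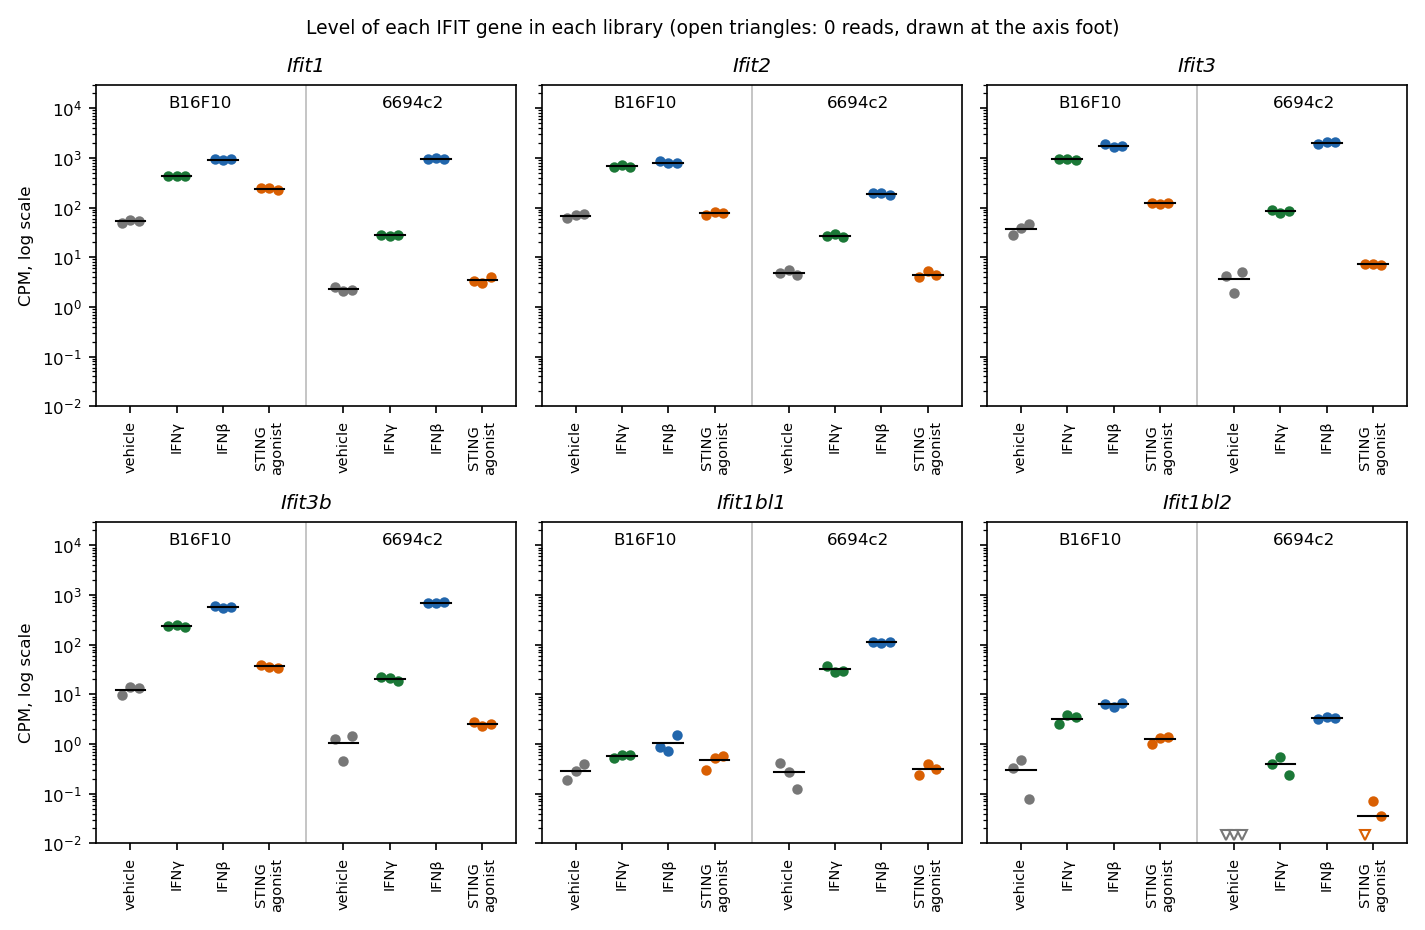
Level of each IFIT gene in each library, in CPM on a log axis, for the 4 treatments of B16F10 (left of each panel) and 6694c2 (right); points are libraries and lines are means of 3 libraries. The mean of Ifit1bl1 with IFNβ is 113 CPM in 6694c2 and 1.05 CPM in B16F10, and that of Ifit1 is 962 and 925 CPM.

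IFNβ, a type I interferon, raised every member in both lines. In B16F10 with IFNβ, Ifit1 was at 954, 892 and 928 CPM, and Ifit2 at 848, 771 and 797 CPM. Ifit3 was at 1858, 1660.0 and 1739 CPM. All of these libraries stood above all vehicle libraries. Ifit3b ranged from 557 to 604 CPM and Ifit1bl2 from 5.56 to 6.75 CPM. Ifit1bl1 was at 0.888, 0.728 and 1.54 CPM, above its vehicle range but with 19 to 38 reads a library. At the epithelial marker share of these libraries, 0.269% of its 6694c2 IFNβ level is 0.303 CPM, against a mean of 1.05 CPM measured.

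Against vehicle, 6 of 6 members were called higher with IFNβ in B16F10, where 12.7% of all genes were called higher. The log2 fold change was 5.54 ± 0.0666 (SE, n = 3 against 3) for Ifit3, 5.53 for Ifit3b, 4.40 for Ifit1bl2, 4.13 for Ifit1, 3.57 for Ifit2 and 1.83 ± 0.471 for Ifit1bl1 (adjusted p = 0.000897, edgeR's quasi-likelihood test). Their median was 4.27, against 0.02 over all genes. No adjusted p of the other 5 was above 2.56e-42 in this test.

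In 6694c2 with IFNβ, Ifit1 was at 932, 1001 and 954 CPM. Ifit3 was at 1929, 2073 and 2110.2 CPM. Ifit2 stayed lower, at 192, 192 and 181 CPM. The Ifit1 range overlapped that of B16F10 with IFNβ, the Ifit3 and Ifit3b ranges lay above it, and the Ifit2 range lay below it in every library. Ifit1bl1, an IFIT1-like gene, was at 115, 111 and 112 CPM, with 2452 to 3459 reads a library, against at most 1.54 CPM in any B16F10 library. Ifit1bl2 was at 3.20, 3.57 and 3.39 CPM, below the 5.56 to 6.75 CPM of B16F10.

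All 6 members were called higher with IFNβ in 6694c2, where 10.4% of all genes were. The log2 fold change was 9.42 ± 0.137 (SE, n = 3 against 3) for Ifit3b, 9.14 for Ifit3, 8.77 for Ifit1, 8.70 for Ifit1bl1 and 5.29 for Ifit2. That of Ifit1bl1 rests on 14 reads over the 6694c2 vehicle group. Ifit1bl2 was at least 58.1-fold higher, counted against the limit for its 0 vehicle reads. The median was 8.96 as fitted and 8.73 with that bound, against 0 over all genes.

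The IFNβ change was larger in 6694c2 than in B16F10 for all 6 genes in the test of the difference itself, over the 24 libraries, where 6.16% of all genes were called in that direction. The difference of the log2 fold changes was 4.61 ± 0.120 (SE, 3 libraries in each of 4 groups; adjusted p = 4.57e-28 in edgeR's quasi-likelihood test) for Ifit1, 3.87 for Ifit3b, 3.58 for Ifit3, 1.69 for Ifit2 and 6.85 ± 0.635 for Ifit1bl1. For Ifit1bl2 it was 4.90 ± 1.47 (adjusted p = 0.022, edgeR), a fitted value that rests on a vehicle group with no reads. That last call was lost without 6694c2 vehicle replicate 1, 2 or 3 (adjusted p = 0.065, 0.0667 and 0.063, edgeR) and without B16F10 vehicle replicate 2 (adjusted p = 0.0696). The levels of Ifit1 with IFNβ overlapped between the lines, and its vehicle levels did not.

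IFNγ, the type II interferon, raised the 4 best-measured members in both lines to different levels. In B16F10 with IFNγ, Ifit1 was at 430.1, 428 and 425 CPM, and Ifit2 at 655, 735 and 648 CPM. Ifit3 was at 937, 930.4 and 916 CPM. The 3 genes were above vehicle in every library. In 6694c2 with IFNγ, Ifit1 was at 28.6, 26.9 and 28.1 CPM and Ifit2 at 26.4, 29.5 and 25.9 CPM, all below the B16F10 vehicle libraries of the same gene. Ifit3 was at 89.4, 76.7 and 84.6 CPM in 6694c2, above the B16F10 vehicle libraries. Ifit1bl1 was at 36.9, 28.4 and 30.2 CPM in 6694c2 and at 0.513, 0.610 and 0.616 CPM in B16F10. Per kb of exon, the level of Ifit1bl1 in the 6694c2 libraries given IFNγ was 1.23 to 1.51 times that of Ifit1.

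Against vehicle, 5 of 6 members were called higher with IFNγ in B16F10, where 12% of all genes were, and 6 of 6 in 6694c2, where 7.89% were. The log2 fold changes in B16F10 were 4.61 for Ifit3, 4.24 for Ifit3b, 3.43 for Ifit1bl2, 3.32 for Ifit2 and 3.01 for Ifit1. Without B16F10 vehicle replicate 2, the value of Ifit1bl2 was 4.02. Ifit1bl1 in B16F10 was not called, at 0.97 (95% interval -0.02 to 1.96; adjusted p = 0.177, edgeR's quasi-likelihood test), with 13 to 14 reads a library. In 6694c2 the log2 fold changes were 6.86 ± 0.192 (SE, n = 3 against 3) for Ifit1bl1, 4.52 for Ifit3, 4.30 for Ifit3b, 3.64 for Ifit1 and 2.48 for Ifit2. That of Ifit1bl1 rests on 14 reads over the 6694c2 vehicle group. Ifit1bl2, with 7, 9 and 7 reads, was at least 6.74-fold higher than in the 6694c2 vehicle libraries. The members' median was 3.38 in B16F10 and 4.41 in 6694c2 (3.97 with Ifit1bl2 at its bound), against 0 over all genes in both.

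The IFNγ change differed between the lines in both directions. Ifit1bl1 rose more in 6694c2, with a difference of the log2 fold changes of 5.89 ± 0.625 (SE; adjusted p = 3.36e-09, edgeR), and so did Ifit1, by 0.61 ± 0.138 (adjusted p = 0.00198). Ifit2 rose less in 6694c2, by -0.85 ± 0.139 (adjusted p = 2.15e-05, edgeR). The same test called 4.52% of all genes higher and 4.95% lower. Ifit3 and Ifit3b were not called, at -0.11 (95% interval -0.53 to 0.30) and 0.04 (-0.40 to 0.49), nor was Ifit1bl2, at 2.66 (-0.52 to 5.83). At the melanocyte marker share of the 6694c2 vehicle libraries, 0.47% of the B16F10 IFNβ level of Ifit2 is 3.78 CPM, against 4.90 CPM measured. For Ifit1 it is 4.35 CPM, against 2.26 CPM measured. The part of such reads in these differences was not tested.

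**Figure D2:**
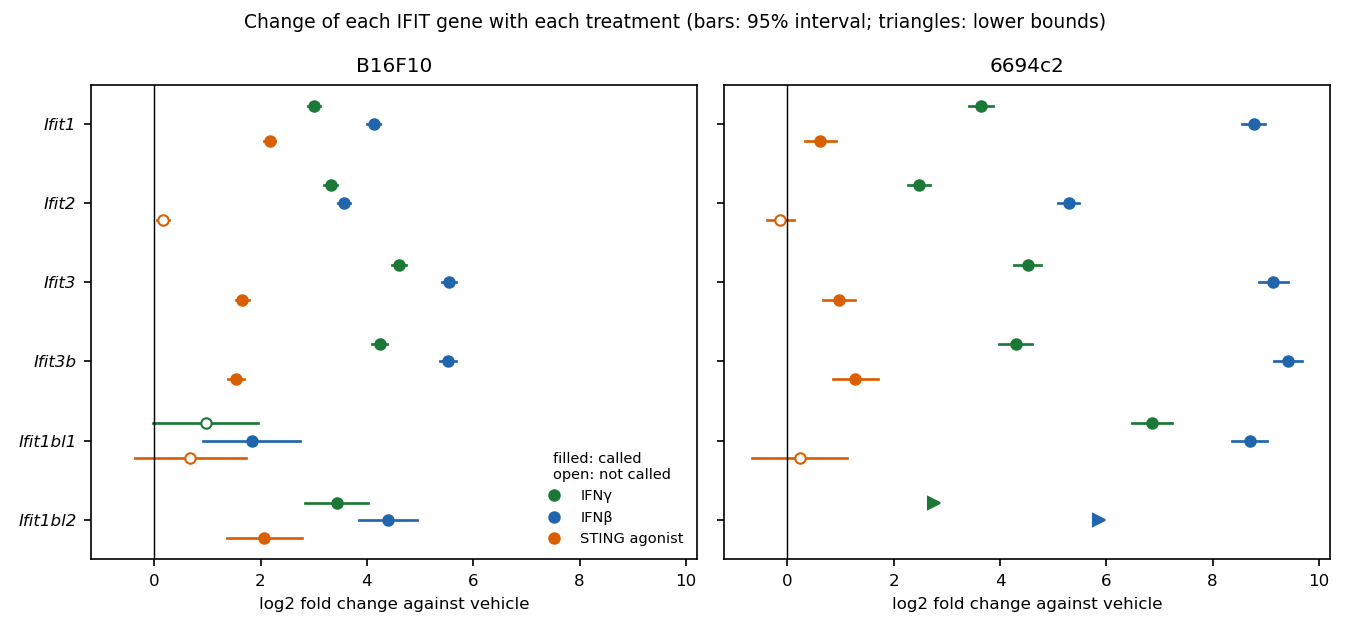
Log2 fold change of each IFIT gene against vehicle in B16F10 (left) and 6694c2 (right), with 95% intervals; filled points were called at an adjusted p under 0.05, open points were not, and triangles are lower bounds. Ifit1bl2 with the STING agonist in 6694c2 is not drawn because both groups had 3 reads or fewer. Values for IFNβ lie between 1.83 and 5.54 in B16F10 and between 5.29 and 9.42 in 6694c2 where a fold could be given.

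IFNβ and IFNγ were compared directly within each line, at the doses used. In B16F10, 5 of 6 members were called higher with IFNβ than with IFNγ, where 6.65% of all genes were. The log2 difference there was 1.29 for Ifit3b, 1.12 for Ifit1, 0.96 for Ifit1bl2, 0.93 for Ifit3 and 0.26 ± 0.0523 (SE; adjusted p = 2.62e-05, edgeR's quasi-likelihood test) for Ifit2. Ifit1bl1 was at 0.87 (95% interval 0.03 to 1.70; adjusted p = 0.193, edgeR). In 6694c2, 6 of 6 members were called higher, where 7.3% of all genes were, and the log2 differences were 5.13 for Ifit1, 5.12 for Ifit3b, 4.63 for Ifit3, 3.20 for Ifit1bl2, 2.81 for Ifit2 and 1.84 for Ifit1bl1. Among the called members, the smallest difference was that of Ifit2 in B16F10 and of Ifit1bl1 in 6694c2.

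The STING agonist changed the family unevenly in B16F10. Ifit1 was at 243, 248 and 229 CPM, above all vehicle libraries. Ifit2 was at 69.4, 82.1 and 79.0 CPM, and its range overlapped that of vehicle. Ifit3 was at 125, 115 and 122 CPM, above all vehicle libraries, and Ifit3b ranged from 33.5 to 39.9 CPM, likewise above. Ifit1bl2 had 17, 31 and 26 reads and Ifit1bl1 5, 12 and 11.

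Of the 6 members, 4 were called higher with the STING agonist in B16F10, where 1.93% of all genes were. The log2 fold change was 2.17 ± 0.0572 (SE, n = 3 against 3; adjusted p = 1.77e-131, edgeR's quasi-likelihood test) for Ifit1, 2.07 ± 0.362 for Ifit1bl2, 1.66 for Ifit3 and 1.53 for Ifit3b. Ifit2 was at 0.17 (95% interval 0.06 to 0.28; adjusted p = 0.0821, edgeR) and Ifit1bl1 at 0.68 (-0.36 to 1.72). Ifit2 was called without B16F10 STING agonist replicate 1 (0.23, adjusted p = 0.0185, edgeR) and without B16F10 vehicle replicate 3 (0.22, adjusted p = 0.0358). Epithelial markers were highest in these B16F10 libraries, and 0.835% of the 6694c2 IFNβ level is 8.03 CPM for Ifit1 and 17 CPM for Ifit3, against measured rises over vehicle of 187 and 82.9 CPM. For Ifit1bl1 that share is 0.941 CPM, more than the 0.467 CPM measured, and the part of such reads was not tested.

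In 6694c2 the STING agonist gave small changes on low levels. Ifit1 was at 3.27, 3.06 and 4.05 CPM, Ifit3 at 7.33, 7.21 and 7.08 CPM, and Ifit3b at 2.80, 2.34 and 2.53 CPM, each above its vehicle libraries. Ifit2 was at 3.90, 5.15 and 4.36 CPM and overlapped vehicle, as did Ifit1bl1, with 6 to 11 reads a library. Ifit1bl2 had 0, 2 and 1 reads, at the limit that a count of 0 allows, so no fold is given.

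Of the 6 members, 3 were called higher there, where 0.203% of all genes (43 genes) were. The log2 fold change was 0.62 ± 0.145 (SE, n = 3 against 3; adjusted p = 0.0339, edgeR's quasi-likelihood test) for Ifit1, 0.97 ± 0.153 (adjusted p = 0.000176) for Ifit3 and 1.28 ± 0.216 (adjusted p = 0.000541) for Ifit3b. Ifit2 was at -0.13 (95% interval -0.38 to 0.13) and Ifit1bl1 at 0.23 (-0.67 to 1.12). When 1 library was left out, the call of Ifit1 was lost in edgeR: its value was 0.66 without 6694c2 STING agonist replicate 1 (adjusted p = 0.0589) and 0.49 without replicate 3 of that group (adjusted p = 0.488). It was likewise lost without 6694c2 vehicle replicate 2 (0.57, adjusted p = 0.183) or 3 (0.61, adjusted p = 0.148, edgeR). The call of Ifit3 was lost with DESeq2 (adjusted p = 0.0704) and with edgeR's robust fit (adjusted p = 0.269). Melanocyte markers were at 0.115% of the B16F10 vehicle level in these libraries and at 0.470% in the vehicle libraries. The part of such reads in these values was not tested.

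The STING agonist change of Ifit1 was smaller in 6694c2 than in B16F10, by -1.56 ± 0.164 on the log2 scale (SE; adjusted p = 1.29e-08, edgeR's quasi-likelihood test), and Ifit1 was the member called in that test of the difference, where 1.56% of all genes were called lower. Ifit3 was at -0.70 (95% interval -1.15 to -0.26; adjusted p = 0.108, edgeR). It was called without 6694c2 vehicle replicate 2 (-1.03, adjusted p = 0.00184, edgeR) and without B16F10 vehicle replicate 3 (-0.88, adjusted p = 0.0186). The other 4 genes had adjusted p-values between 0.393 and 0.879 in edgeR. Against IFNβ, 5 of 6 members were called lower with the STING agonist in B16F10 (11% of all genes) and 6 of 6 in 6694c2 (9.53%). The log2 difference there was -1.96 for Ifit1 and between -3.99 and -2.33 for Ifit2, Ifit3, Ifit3b and Ifit1bl2 in B16F10, and between -8.47 and -5.42 for the 5 members other than Ifit1bl2 in 6694c2. Ifit1bl2 in 6694c2 had 267 reads with IFNβ and 3 with the STING agonist, a ratio of 91.5 per unit of library size (95% interval 31 to 447, counting error only). Ifit1bl1 in B16F10 was at -1.15 and was not called (adjusted p = 0.0551, edgeR). It was called without B16F10 IFNb replicate 2 (-1.35, adjusted p = 0.0389, edgeR), with filterByExpr (-1.14, adjusted p = 0.0382) and with only the groups compared (-1.14, adjusted p = 0.0445). Its reads summed with those of Ifit1bl2 gave -2.09, but with IFNβ the sum held 79 reads of Ifit1bl1 and 474 of Ifit1bl2. That value does not measure Ifit1bl1 alone.

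Divided by exon length, the make-up of the family differed by treatment and line. In B16F10 with vehicle, Ifit3 was 32.7% ± 4.03 (SD, n = 3), Ifit1 30.8% ± 2.56 and Ifit2 26.7% ± 1.84 of the family's CPM per kb. Ifit3 was 54.0% ± 0.893 with IFNγ and 54.3% ± 0.415 with IFNβ. With the STING agonist Ifit1 was the largest, at 45.7% ± 1.15, and Ifit2 was 9.89% ± 0.964. In 6694c2, Ifit3 had the largest mean share in every group, from 42.1% ± 11.2 with vehicle to 58.9% ± 0.785 with IFNβ. Ifit2 was 27.1% ± 10.5 there with vehicle and 2.42% ± 0.150 with IFNβ. With vehicle the ranges of Ifit3 (29.9% to 52.0%) and Ifit2 (19.5% to 39.1%) overlapped. By reads not divided by length, Ifit2 had the larger mean in that group, at 41.2% against 29.6%. Ifit1bl1 was 15.5% ± 1.15 of the family in 6694c2 with IFNγ and 2.50% ± 0.133 with IFNβ, and in B16F10 it was under 0.2% in the mean of every group.

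The ratio of Ifit1 to Ifit2 per kb was then compared. It was 1.11 to 1.19 in B16F10 with vehicle and 4.29 to 5.18 with the STING agonist, and the libraries did not overlap. It was 0.862 to 0.971 with IFNγ and 1.66 to 1.72 with IFNβ in B16F10. In 6694c2 it was 1.35 to 1.60 with IFNγ and 7.18 to 7.80 with IFNβ. In an exact two-sided permutation test over 3 against 3 libraries, each of these comparisons within a line (STING agonist against vehicle in B16F10 and IFNβ against IFNγ in both lines) had p = 0.1, the smallest this design allows. The adjusted p was 0.1 over 8 ratio comparisons, so the threshold could not be reached. The ratios were chosen after their values were seen. The sum of the family was 172 ± 20.5 CPM (SD, n = 3) with vehicle and 4065 ± 194 CPM with IFNβ in B16F10, and 12.2 ± 1.68 and 4010.1 ± 124 CPM in 6694c2.

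**Figure D3:**
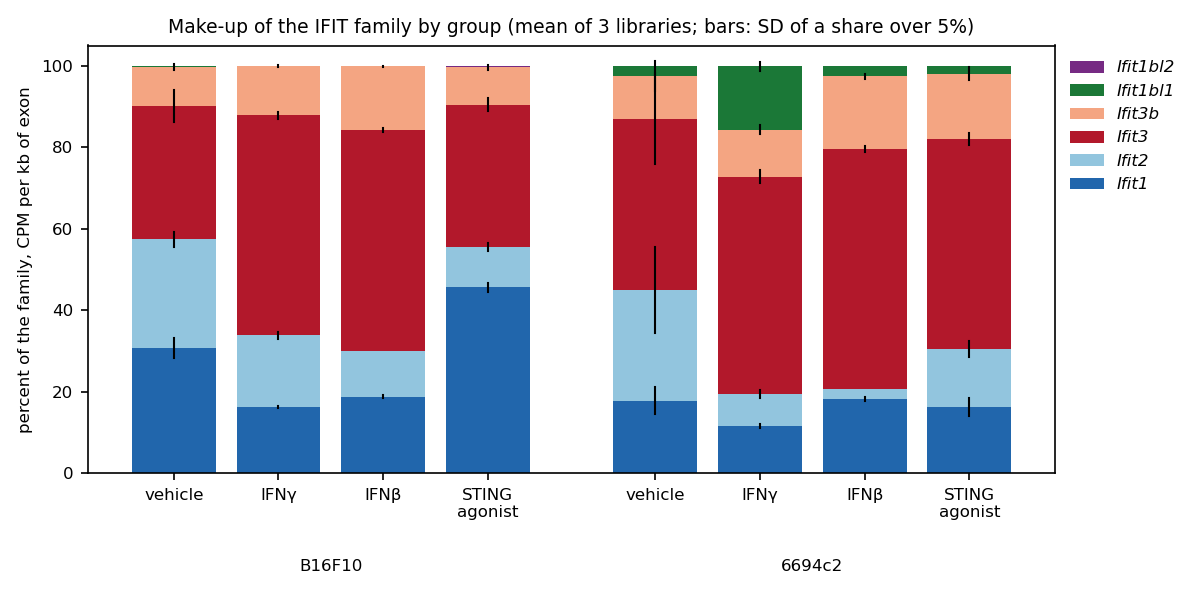
Share of each IFIT gene in the family's summed CPM per kb of exon, as the mean of 3 libraries in each of 8 groups, with the SD drawn for shares over 5%. Ifit3 takes 54.0% and 54.3% in B16F10 with IFNγ and IFNβ, and Ifit1 takes 45.7% with the STING agonist.

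The components that carry interferon signals were counted as a list of 13 genes. With IFNβ, 9 were called higher in B16F10, where 12.7% of all genes were, and 9 in 6694c2, where 10.4% were. In B16F10, 1 was called lower with IFNβ (11.2% of all genes). With IFNγ, 10 were called higher and 1 lower in B16F10 (12% and 10.8% of all genes), and 8 higher and 1 lower in 6694c2 (7.89% and 5.66%). With the STING agonist, 5 were called higher in B16F10 (1.93% of all genes). In 6694c2 that agent gave 0 calls in edgeR, where 0.203% of all genes were called higher, and 0 in DESeq2. Before adjustment, edgeR's p was under 0.05 for 1 higher and 1 lower gene of this list. The list's median log2 fold change with IFNβ was 0.37 in B16F10 and 0.48 in 6694c2, against 0.02 and 0 over all genes.

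Irf9 and Stat2, which encode subunits of the factor that binds the response elements, had lower vehicle levels in 6694c2 than in B16F10. Irf9 was at 43.1 CPM in B16F10 and 5.10 in 6694c2, a log2 difference of -3.08, and Stat2 at 8.14 and 3.49 CPM (-1.23). Both were called lower, where 29.3% of all genes were, and a link to the IFIT levels was not tested. Of the receptor chains, Ifnar1 differed by -0.47 and Ifnar2 by -0.79, both called lower. Ifngr1, a chain of the IFNγ receptor, was called higher in 6694c2 by 3.02. Jak1 (0.52), Jak2 (1.85), Irf1 (0.85) and Ifngr2 (0.23) were among the other listed genes called higher in 6694c2. Usp18, which restrains signalling from IFNAR, was at 50.5 CPM in B16F10 and 1.63 in 6694c2 with vehicle and at 875 and 504 CPM with IFNβ.

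With IFNβ, Irf9 rose by 1.32 on the log2 scale in B16F10 and by 4.35 in 6694c2, and the test of the difference called it (3.0). Usp18 rose by 4.12 and 8.32 (difference 4.17, called). With the STING agonist in B16F10, Usp18 (1.15), Stat2 (1.04), Irf1 (0.44) and Irf9 (0.39) were among the genes called higher. In 6694c2, Stat2 was at 0.37 with that agent and was not called.

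Of 6 genes at the start of STING and interferon signalling, Ifnb1, which encodes IFNβ itself, did not pass the filter and was at or near 0 in all groups. Tmem173, the gene of STING, was at 28.8 CPM in B16F10 with vehicle and 1.92 in 6694c2, a log2 difference of -3.90 that was called. Cgas was called lower in 6694c2 by 0.93 on the log2 scale, and 29.3% of all genes were called lower between the vehicle groups. With the STING agonist in B16F10, 0 of the 5 tested genes were called in edgeR, where 1.93% of all genes were called higher. The count was also 0 in DESeq2 and 0 at an unadjusted p under 0.05 in edgeR. In 6694c2 with that agent, Irf7 was called higher (1.62), where 0.203% of all genes were. Irf7, a factor that amplifies type I interferon responses, was at 0.95 CPM with vehicle, 76.9 with IFNγ and 962 with IFNβ in 6694c2, against 0.92, 1.49 and 2.61 CPM in B16F10. At the epithelial marker share of each B16F10 group, the 6694c2 IFNβ level would give 1.28 CPM with vehicle, 2.18 with IFNγ, 2.59 with IFNβ and 8.03 with the STING agonist. Irf7 was measured at 1.10 CPM with the STING agonist, and the part of such reads was not tested.

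A list of 12 genes for cap methylation, translation initiation and RNA sensing held the known partners and rivals of the IFIT proteins. With IFNβ, 5 were called higher and 2 lower in B16F10 (12.7% and 11.2% of all genes), and 6 higher in 6694c2 (10.4%). With IFNγ, 5 were called higher and 2 lower in B16F10 (12% and 10.8%), and 6 higher and 3 lower in 6694c2 (7.89% and 5.66%). The sensors and effectors rose with IFNβ, with values given for B16F10 and then 6694c2. Ddx58, which encodes RIG-I, rose by 2.42 and 5.66 on the log2 scale. Ifih1, which encodes MDA5, rose by 2.86 and 5.62, and Eif2ak2, which encodes the kinase PKR, by 1.62 and 3.01. Cmtr1, the methyltransferase whose mark hides capped RNA from IFIT1, rose by 0.91 and 1.91 with IFNβ. The list held 4 subunits of the initiation factor eIF3. With IFNβ, Eif3a (-0.14) and Eif3b (-0.24) were called lower in B16F10 and Eif3c (0.29) higher in 6694c2. Eif3e was called in neither line with IFNβ, at 0.00 and -0.16. With the STING agonist, 4 of the 12 were called higher in B16F10, where 1.93% of all genes were (Dhx58, Ifih1, Ddx58 and Eif2ak2). In 6694c2, 0 were called in edgeR, where 0.203% of all genes were called higher, and 0 in DESeq2. There, edgeR's p before adjustment was under 0.05 for 1 gene in each direction.

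The genes beside the cluster were counted for comparison. Of 8 neighbours, 7 passed the filter, and Lipa, the nearest tested gene before Ifit2, was at 0.04 with IFNβ in B16F10 and 0.13 in 6694c2, neither called. Pank1, on the other side of Ifit1, was at 0.07 and -0.24. With IFNβ in B16F10, 0 of the 7 were called higher in edgeR, where 12.7% of all genes were, and 0 in DESeq2. At an unadjusted p under 0.05 in edgeR, 1 was higher. Kif20b was called lower there (-0.21), as 11.2% of all genes were. In 6694c2, 1 was called higher, Stambpl1 (0.60), where 10.4% of all genes were. With the STING agonist, 1 of the 7 was called higher in B16F10 (1.93% of all genes). In 6694c2 that agent gave 0 in edgeR (0.203% of all genes higher), 0 in DESeq2 and 0 at an unadjusted p under 0.05 in edgeR. With IFNγ, 2 were called higher and 2 lower in B16F10 (12% and 10.8% of all genes), and 3 higher in 6694c2 (7.89%). Those lower were Lipa (-0.18) and Kif20b (-0.20). Those higher included Fas, the death receptor gene, which went from 0.174 to 10.3 CPM in 6694c2 (5.86) and rose by 2.01 in B16F10, and Acta2, smooth muscle actin, which had 2 reads over the 6694c2 vehicle group and 198 with IFNγ.

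**Figure D4:**
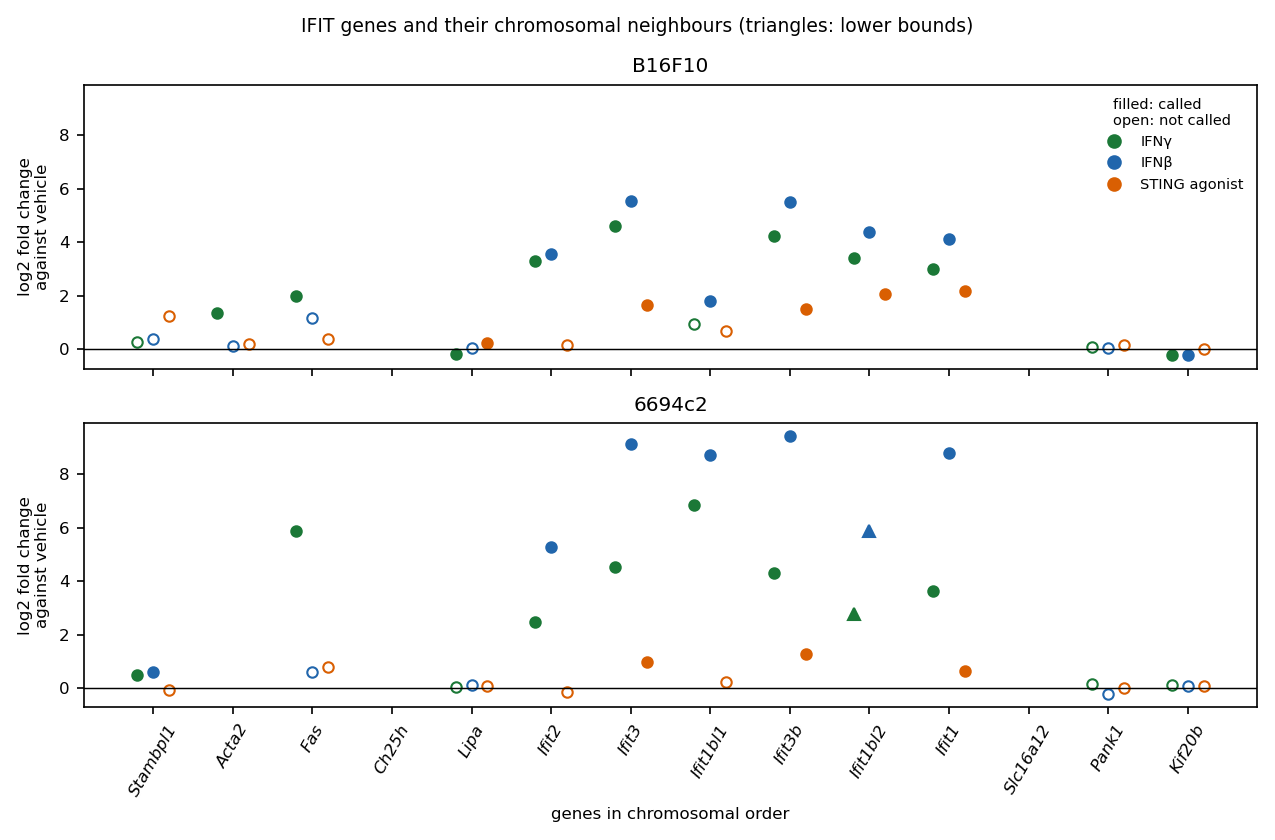
Log2 fold change against vehicle for the IFIT genes and their neighbours in chromosomal order, in B16F10 (top) and 6694c2 (bottom); filled points were called, and no point is drawn where either group had 3 reads or fewer, except as a lower bound (triangles). With IFNβ the IFIT genes lie at 1.83 or above, and the nearest tested neighbours, Lipa and Pank1, between -0.24 and 0.13.

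The level profiles of the members over the 8 group means were alike except for Ifit1bl1. On the scale of log2(CPM + 1), Pearson's r was 0.997 for Ifit3 and Ifit3b, 0.966 for Ifit1 and Ifit3 and 0.943 for Ifit1 and Ifit2, and it was between 0.137 and 0.450 for Ifit1bl1 with the other 5. The counting could split reads between Ifit3 and Ifit3b, so the r of that pair is uncertain. Among 10169 genes with a mean of at least 10 CPM in any group, those most like Ifit1 outside the family were Usp18 (r = 0.993), Oas1g (0.992) and Isg15 (0.991), those most like Ifit2 were Vps37a (0.994), March5 (0.992) and Herc6 (0.991), and those most like Ifit3 were Zc3hav1 (0.995), Gm6548 (0.991) and Eif2ak2 (0.991). These values describe 8 means that share treatments and lines, and r does not measure the size of a change. Group means ran from 35.9 to 45.9 CPM for Vps37a and from 95.8 to 246 CPM for March5, against 4.47 to 805 CPM for Ifit2. Herc6 ran from 1.93 to 390 CPM.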

How the data were processed

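The authors trimmed paired-end reads with cutadapt 1.14, aligned them with STAR 2.7.9a and used Rsubread to count reads on genes. The deposited values are raw counts, 1 table per library. The genome build, annotation, strandedness and treatment of multi-mapping reads are not given in the sources used here; gene coordinates in the tables match GRCm38 (91.4% of 49056 genes have the same start, end and strand in GENCODE M21).

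The counts were analysed with edgeR 4.0.16 (R 4.3.3). The filter named in the study's methods, 10 reads or more summed over the 24 libraries, left 21138 of 49315 genes. Libraries were scaled by TMM, and CPM used the scaled totals. Each line was fitted over its 12 libraries, and contrasts between lines over all 24, with group means. Contrasts were tested with the quasi-likelihood F test and Benjamini-Hochberg adjustment over all genes kept (threshold 0.05). SE were derived from the fold change and F, and 95% intervals are normal. The tests were tested on simulated data. The study's methods name DESeq2 1.42.0 (version used here) as its tool, and it was run as an alternative. A group of 0 reads was set to 3 reads for bounds, which cover counting error only. Promoter windows came from RefSeq, and transcripts were compared in GENCODE M21 with Biopython 1.88.

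All 6 members are named, with list members, and the 3 genes of highest r for Ifit1, Ifit2 and Ifit3. The members and lists were chosen with earlier results of these data known. Alternatives were other scalings, filters and tools, a replicate block, only the groups compared, summed pairs, and each library left out. Of the signalling list, 1 gene enters the counts and its own values are not reported here. The 6 single-cell samples were not analysed here.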

Additional observations from a re-analysis of the deposited data

Results flagged for a closer look

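Results in which the same treatment gave different changes in the 2 lines are listed here as the difference of log2 fold changes, 6694c2 minus B16F10, each called by the test of that difference in edgeR. With IFNγ these were Ifit1 (0.61), Ifit2 (-0.85) and Ifit1bl1 (5.89). With IFNβ they were Ifit1 (4.61), Ifit2 (1.69), Ifit3 (3.58), Ifit3b (3.87), Ifit1bl1 (6.85) and Ifit1bl2 (4.90, against a 6694c2 vehicle group with no reads). With the STING agonist it was Ifit1 (-1.56). Ifit2 was the member whose IFNγ difference was below 0 and whose IFNβ difference was above 0, each past the threshold. Any part of reads from the other line in these differences was not tested. Groups had 3 libraries, so no sample was checked for standing apart.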

How the results depend on the processing

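The log2 changes of members were recomputed under each alternative, where a summed pair was set against Ifit3 or Ifit1bl1 alone. Of these, 1302 kept their direction and their side of the threshold and 12 lost the call. A further 17 gained it, some of them as summed pairs, and 9 changed sign, none of these 9 from a called value. Counts of members called stayed within 1.5 times in 424 recomputations and moved in 4, all of them members called lower for the STING agonist change in 6694c2 against B16F10. That count was 1, and 2 with no filter on low counts and with only the groups compared fitted. Leaving out each library in turn gave 1 to 2. Under DESeq2 the STING agonist difference of Ifit1bl2 between the lines was -0.32. Leaving out each library in turn moved the log2 change of Ifit1bl1 with the STING agonist in 6694c2 from -0.09 to 0.63 and its vehicle difference between the lines from -0.52 to 0.22. It moved the IFNγ difference between the lines from -0.44 to 0.18 for Ifit3 and from -0.34 to 0.34 for Ifit3b, and the STING agonist difference of Ifit3b from -0.65 to 0.03. Ifit1 with the STING agonist in 6694c2 was not called with edgeR's filterByExpr (adjusted p = 0.0729) or with only the groups compared (0.187). Ifit2 with the STING agonist in B16F10 was called with library totals (adjusted p = 0.0297, edgeR) and with only the groups compared (0.0131). The STING agonist difference of Ifit3 between the lines was called with no filter (adjusted p = 4.72e-05, edgeR) and with only the groups compared (0.043). Summing the reads of Ifit1bl1 and Ifit1bl2 gave called changes in B16F10 of 2.69 with IFNγ and 1.54 with the STING agonist. Most summed reads were those of Ifit1bl2, with 229 against 41 of Ifit1bl1 with IFNγ and 74 against 28 with the STING agonist. Ifit1bl2 alone was called there, at 3.43 and 2.07, so the sums do not measure Ifit1bl1. The cause of the other changes was not tested. Of 48 shares of the family, 34 moved by more than 1 SD when reads were not divided by length.

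The replicate numbers were not shown to pair the libraries, since in 0 of 11 comparisons did all same-numbered pairs correlate above 0.1 (range -0.317 to 0.276). With the replicate block, Ifit2 was called with the STING agonist in B16F10 (0.17, adjusted p = 0.0425, edgeR), and the genes called for that agent in 6694c2 went from 76 to 126. Precision was limited by depth for Ifit1bl1 in B16F10 and in the 6694c2 vehicle group, and for Ifit1bl2 in 6694c2, which had few reads.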
